A study of Homo sapiens with 45 samples.

Results

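The comparison described here set RNA libraries made with 1 kit against RNA libraries made with another. Cells of HCT116, a line established from a human colon cancer, received 25 nM of a nontargeting control siRNA (siNTC5) or of an siRNA against HNRNPK (siHNRNPK) and was collected after 72 hours. Each siRNA had 4 RNA libraries: replicates 1 and 2 were made with the Illumina TruSeq stranded mRNA kit, and replicates 3 and 4 with the Illumina Stranded mRNA, Ligation kit. The 8 libraries, 4 for each kit, were chosen by these labels alone, out of 10 RNA libraries and 45 samples in the series. RNA of all 8 was purified with the Maxwell RSC simple RNA Tissue chemistry. The remaining 2 RNA libraries, named Scramble, also came from cells with a nontargeting siRNA, and were made with the TruSeq kit after purification on Qiagen RNeasy mini columns.

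Both kits are designed to capture polyadenylated RNA with oligo-dT beads, to fragment it and to mark the strand during second-strand synthesis. They differ in how adapters are joined to the cDNA. The labels do not say whether replicates 3 and 4 were also grown, transfected or sequenced apart from replicates 1 and 2, so the kit cannot be told apart from anything else that these pairs of replicates share. They do not say that replicates came from separate cultures either, and the p-values measure only the spread between these libraries. The groups of genes followed below have known roles. ATF4 is a transcription factor made when amino acids are short or proteins misfold, and it raises genes for amino acid synthesis and transport. Immediate early genes such as FOS answer growth factors, serum or handling within minutes and decay as fast. E2F factors drive the genes of DNA replication as a cell enters S phase.

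Total counts lay between 12107280 and 23633851 per library, and levels are given as CPM, counts per unit of library size scaled by TMM. The summed markers in this paragraph and the levels set beside the Scramble libraries use the library total without that scaling. The TruSeq libraries of siNTC5 differed most between replicates. Replicate 1 minus replicate 2 had a standard deviation (SD) of 0.190 in log2 CPM over the 9998 genes with a mean log2 CPM of at least 3, against 0.117 to 0.149 for the other 3 pairs. That difference ran along the kit difference. Across those genes it had a Pearson r of 0.61 with the kit difference of the siHNRNPK libraries, against 0.06 to 0.21 for the other pairs; genes are not independent replicates. For the 1740 genes called higher in Ligation in the siHNRNPK libraries alone, the median deviation from the siNTC5 mean was -0.02 in siNTC5 replicate 1, -0.24 in replicate 2, 0.16 in replicate 3 and 0.11 in replicate 4. Replicate 1 thus lay between its TruSeq partner and the Ligation libraries. Counts without it are given below for the kit test, the interaction, chromosome 19 and some of the lists. Epithelial markers (EPCAM, CDH1, KRT8, KRT18 and KRT19 together) were at 2721 to 4618 CPM in TruSeq and 3104 to 5255 CPM in Ligation libraries. Of 5 intestinal markers, which summed to 9.48 to 12.7 CPM in TruSeq and 12.4 to 14.1 CPM in Ligation libraries, CDX2 made up nearly all and KRT20 was at 0 counts in all 8. The 6 fibroblast markers summed to 45.2 to 76.7 CPM in TruSeq and 72.7 to 120.01 CPM in Ligation libraries, almost wholly from the collagen COL1A1, with LUM at 0. Summed markers of blood cells and of liver stayed under 1.34 CPM, with CD3E and TTR at 0, and those of endothelium under 3.28 CPM. The part of the COL1A1 difference in the results below was not tested.

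HNRNPK, the siRNA target, lies at chr9:83968083-83980615 (GRCh38.p14) and encodes an abundant nuclear protein that binds C-rich RNA and DNA. In siNTC5 replicates 1 to 4 it was at 934, 967, 822 and 814 CPM. In siHNRNPK replicates 1 to 4 it was at 250.3, 223, 157 and 164 CPM. The depleted libraries were all far below the controls, and within each siRNA the Ligation libraries were below both TruSeq libraries. The kit difference on the log2 scale, Ligation minus TruSeq, was -0.38 ± 0.06 (SE, 4 libraries against 4, adjusted p = 0.000145 by edgeR's quasi-likelihood test). It was -0.56 in siHNRNPK and -0.22 in siNTC5 libraries, and the test of the difference between them missed the threshold in edgeR (adjusted p = 0.10).

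**Figure D1:**
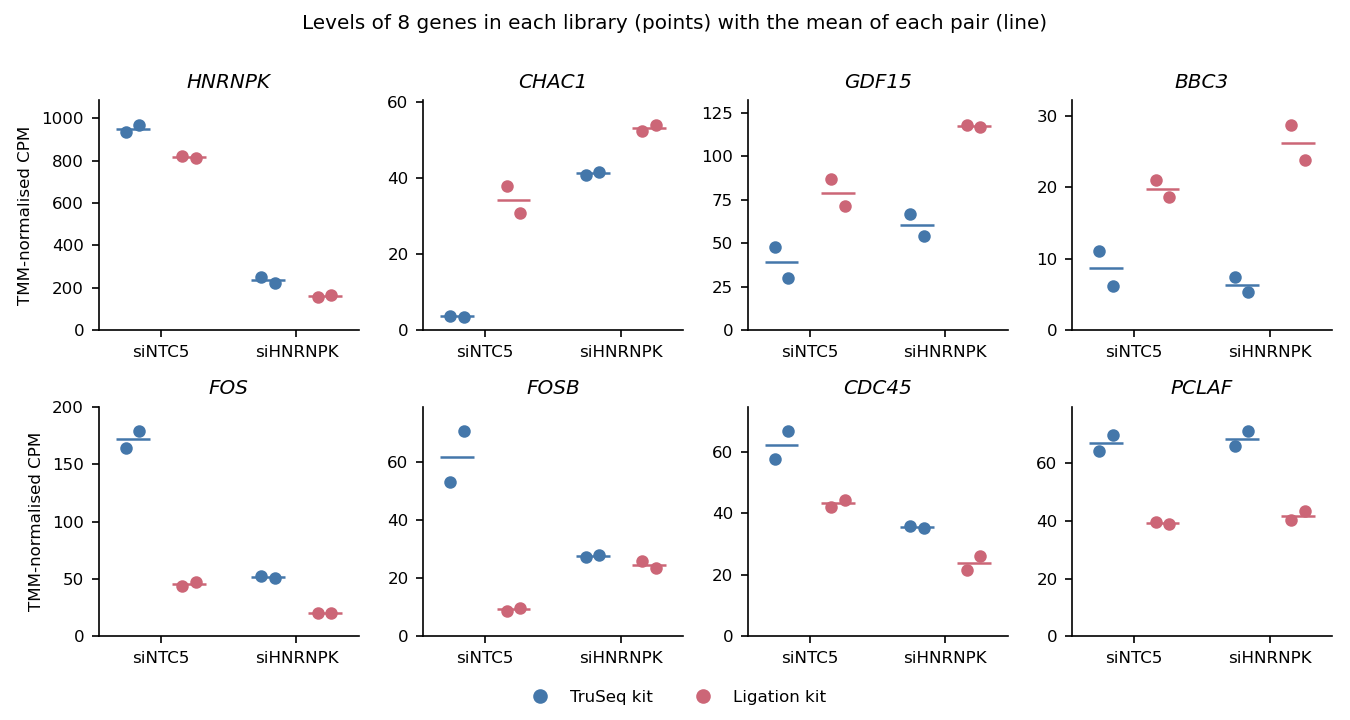
Level of 8 genes in TMM-normalised CPM (y axis, linear, from 0) in each of the 8 libraries, by siRNA; points are single libraries and lines the mean of the 2 libraries of a kit. CHAC1 was at 3.68 and 3.55 CPM in siNTC5 TruSeq libraries and between 30.7 and 53.9 CPM in the other 6, FOS was lower in every Ligation library than in every TruSeq library, and FOSB was below 10 CPM in the siNTC5 Ligation libraries and between 23.3 and 70.4 CPM in the other 6.

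The kit comparison asked how far gene levels differed between the library rounds once the siRNA was allowed for. edgeR tested 13933 genes and called 3966 of them (28.5%) at a Benjamini-Hochberg adjusted p below 0.05, of which 2123 (15.2%) were higher and 1843 (13.2%) lower in Ligation libraries. Most differences were small. Over all tested genes the absolute log2 fold change had a median of 0.15, and 116 called genes (0.833% of those tested) reached an absolute log2 fold change of 1, 101 of them higher and 15 lower. In the same fit the siRNA itself had 9968 genes called (71.5%), with a median absolute log2 fold change of 0.41. Without siNTC5 replicate 1 the kit count was 4539, and without replicate 2 of that pair 3029.

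Tested on their own libraries, 2 against 2, the siNTC5 cells had 2018 genes called for kit (14.5%) and the siHNRNPK cells 2985 (21.4%). The 1116 genes called in both made up 55.3% of the first set and 37.4% of the second, and 1110 of them moved the same way. Of the 3966 genes called over all 8 libraries, 99.6% had the same sign in both siRNA groups and 15 had opposite signs. In 3407 of them both Ligation libraries lay on the same side of both TruSeq libraries within each siRNA. Across all tested genes the kit differences of the siRNA groups, which share no library, had a Pearson r of 0.45 and a Spearman rho of 0.52; genes are not independent replicates. In bulk RNA, fewer cells of a kind and less RNA per cell cannot be told apart, and this holds for every list below.

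Genes of the ATF4 and amino acid response were mostly higher in Ligation libraries. Of 32 tested members 17 rose and 1, SHMT2, a mitochondrial serine and folate enzyme, fell, with a median log2 fold change of 0.25. Over all tested genes 15.2% rose and 13.2% fell, with a median of 0.01. The median was 0.35 in siNTC5 and 0.12 in siHNRNPK libraries. Fitted alone, siNTC5 libraries had 19 members higher and none lower, and siHNRNPK libraries 10 higher and 3 lower. Without siNTC5 replicate 1, 18 members rose and 1 fell, and over all single-library omissions 15 to 20 rose.

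CHAC1, an enzyme that degrades glutathione, moved furthest. It was at 3.68 and 3.55 CPM in siNTC5 replicates 1 and 2 and at 37.9 and 30.7 CPM in siNTC5 replicates 3 and 4. In siHNRNPK replicates 1 to 4 it was at 40.7, 41.7, 52.3 and 53.9 CPM. The siNTC5 TruSeq libraries therefore stood apart from the other 6, 9.50-fold below their Ligation partners, while in depleted cells the kits differed by 1.29-fold. Its overall log2 fold change was 1.43 ± 0.33 SE (edgeR adjusted p = 0.00302).

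GDF15, a stress-induced secreted factor, rose alike in both siRNA groups. It was at 47.8, 30.1, 86.8 and 71.3 CPM in siNTC5 replicates 1 to 4, and at 66.6, 54.0, 118 and 117 CPM in siHNRNPK replicates 1 to 4. The kits did not overlap within either siRNA, and the log2 fold change was 1.00 ± 0.10 SE (edgeR adjusted p = 5.32e-06). TRIB3, a pseudokinase that restrains ATF4, was at 44.8, 44.4, 91.7 and 88.4 CPM in siNTC5 and at 68.03, 63.95, 80.4 and 80.8 CPM in siHNRNPK replicates 1 to 4. All 4 Ligation libraries exceeded all 4 TruSeq libraries, by a log2 fold change of 1.01 in siNTC5 and 0.29 in siHNRNPK libraries. ASNS, asparagine synthetase, was low throughout, at 2.19, 2.25, 6.26 and 5.31 CPM in siNTC5 and 8.63, 10.8, 11.5 and 11.04 CPM in siHNRNPK replicates 1 to 4.

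DDIT4, an inhibitor of mTORC1, rose by a log2 fold change of 0.61, DDIT3, the stress factor CHOP, by 0.46, and PHGDH, the first enzyme of serine synthesis, by 0.35. ATF4 itself rose by 0.18 over the 8 libraries, with 0.33 in siNTC5 and 0.02 in siHNRNPK libraries. The cystine transporter SLC7A11 (0.28, adjusted p = 0.0967 in edgeR) and the serine enzyme PSPH (0.08) did not pass the test over the 8 libraries. The cytosolic aminoacyl-tRNA synthetases, several of which ATF4 also raises, were mixed. Of 20 tested, 7 rose and 3 fell, with a median of 0.04, beside 15.2% of all tested genes higher and 13.2% lower. CARS1 rose by 0.34 and AARS1 by 0.32, while FARSB fell by 0.28.

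Promoters of the ATF4 list were searched for the C/EBP-ATF response element, to which ATF4 binds with a C/EBP partner, spelled TGATGNAAN and sought on both strands in the 250 bases before each start. It stood in 5 of the 27 list promoters given by RefSeq (GRCh38.p14), or 18.5%, and in 2.35% of the 10829 promoters of tested genes. The share was 2.44% among promoters of all genes called higher and 1.21% among those of all genes called lower. The 5 matches are shown because they set the element beside the kit difference of its gene, with the match in capitals and up to 20 bases on each side, 5′ to 3′ along the gene. They lie at chr15:40953241-40953289 (plus strand) for CHAC1, chr7:97872448-97872496 (minus) for ASNS, chr1:212565196-212565244 (plus) for ATF3, chr19:33374051-33374099 (plus) for CEBPG and chr14:75427986-75428021 (plus) for JDP2.
CHAC1: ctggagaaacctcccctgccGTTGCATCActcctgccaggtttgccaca
ASNS: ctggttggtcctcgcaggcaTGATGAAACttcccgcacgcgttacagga
ATF3: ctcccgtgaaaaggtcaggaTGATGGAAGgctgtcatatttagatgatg
CEBPG: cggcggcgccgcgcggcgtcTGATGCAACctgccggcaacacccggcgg
JDP2: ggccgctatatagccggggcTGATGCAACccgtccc
The kit log2 fold changes of these genes were 1.43 for CHAC1, 0.68 for ASNS, 0.37 for ATF3, 0.11 for CEBPG, which was not called, and 0.51 for JDP2. The match in CHAC1 is on the opposite strand. The list was chosen as ATF4 genes, so its share of promoters with the element does not bear on the kit difference. The median was 0.51 for the 5 list genes with the element and 0.25 for those without it. Of 7 motifs searched, the AP-1 element (TGANTCA) also stood in 4 of these 27 promoters (14.8%), against 6.33% of the 10829. A match is a description of letters and not a bound site.

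Immediate early genes split. Of 29 tested members 7 rose and 8 fell, with a median of 0.07, beside 15.2% of all tested genes higher and 13.2% lower. The count of rises was the less stable. Without siNTC5 replicate 1, 11 rose and 10 fell, and without siHNRNPK replicate 1 or 3, 4 rose. On siNTC5 libraries alone none rose and 11 fell, and on siHNRNPK libraries alone 13 rose and 6 fell. FOS, at chr14:75278828-75282230, had the smallest adjusted p of all tested genes. It was at 165, 179, 44.2 and 47.6 CPM in siNTC5 replicates 1 to 4 and at 52.3, 51.3, 20.3 and 20.1 CPM in siHNRNPK replicates 1 to 4. Every Ligation library was below every TruSeq library, by a log2 fold change of -1.69 ± 0.08 SE (edgeR adjusted p = 8.91e-10), a 3.22-fold fall.

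FOSB, its close relative, differed between the kits in control cells more than in depleted cells, by the interaction test given below. In siNTC5 replicates 1 to 4 it was at 53.1, 70.4, 8.86 and 9.91 CPM, and in siHNRNPK replicates 1 to 4 at 27.1, 28.1, 25.8 and 23.3 CPM. The kits were far apart in control cells and close in depleted cells. Also lower in Ligation libraries over both siRNAs were CCN1 (log2 fold change -0.84) and CCN2 (-0.66), matricellular proteins that YAP also induces. The phosphatases DUSP2 (-0.72) and DUSP1 (-0.52) and the zinc finger factor EGR1 (-0.49) were lower as well. DUSP1 stood at -0.91 in siNTC5 but at -0.06 in siHNRNPK libraries. In the same order, CCN1 stood at -1.38 and -0.44, CCN2 at -1.24 and -0.38, DUSP2 at -0.95 and -0.44, and EGR1 at -0.53 and -0.44.

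The rises came from other members. JUNB, the largest, was at 48.5, 21.3, 58.2 and 43.6 CPM in siNTC5 and 13.4, 14.6, 46.2 and 40.2 CPM in siHNRNPK replicates 1 to 4. In control cells siNTC5 replicate 1 lay within the Ligation range, and in depleted cells the kits were clearly apart. Its log2 fold change was 1.02 ± 0.21 SE (edgeR adjusted p = 0.0014), and JUND followed with 0.47. FOS and JUNB, which encode partners within the AP-1 factor, had opposite signs.

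Genes of DNA replication and the G1/S transition were lower in Ligation libraries almost throughout. Of 34 tested members 29 fell and 1 rose, with a median of -0.30, the lowest of the 30 lists that had tested members, beside the 13.2% of all tested genes that fell. The median was -0.35 in siNTC5 and -0.23 in siHNRNPK libraries. Leaving out any single library left 24 to 29 members lower, and 29 without siNTC5 replicate 1.

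CDC45, which with MCM and GINS proteins forms the replicative helicase, was at 57.6, 66.7, 42.2 and 44.2 CPM in siNTC5 and 36.0, 35.1, 21.7 and 26.0 CPM in siHNRNPK replicates 1 to 4. Both Ligation libraries were below both TruSeq libraries in each siRNA. The log2 fold change was -0.55 ± 0.07 SE (edgeR adjusted p = 2.99e-05). RFC3, a clamp loader subunit, fell by 0.52 on the log2 scale, MCM10 by 0.47 and SLBP, which binds histone mRNA, by 0.45. RRM2, a subunit of ribonucleotide reductase, fell by 0.38 and E2F1 by 0.34. The 6 subunits of the MCM helicase, MCM2 to MCM7, all fell in the 8-library fit, by 0.17 for MCM2 to 0.44 for MCM4.

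CDT1, which loads the MCM helicase in G1, was the 1 member that rose. It was at 69.5, 51.5, 75.8 and 68.6 CPM in siNTC5 replicates 1 to 4, where the kits overlapped, and at 40.8, 39.2, 86.2 and 69.5 CPM in siHNRNPK replicates 1 to 4, where they did not. PCNA (-0.03), RRM1 (-0.08), RFC4 (-0.12) and UHRF1 (0.10) did not pass the test. PCLAF, a PCNA-binding protein that is not in the list, was among the 12 largest falls of called genes with a mean log2 CPM of at least 3. It was at 64.1, 69.8, 39.6 and 38.8 CPM in siNTC5 and 65.8, 70.9, 40.1 and 43.3 CPM in siHNRNPK replicates 1 to 4, so that all Ligation libraries were below all TruSeq libraries, by a log2 fold change of -0.75 ± 0.06 SE (edgeR adjusted p = 5.36e-07).

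Genes of mitosis moved less. Of 32 tested members 10 fell and none rose, with a median of -0.09, beside 13.2% of all tested genes called lower and 15.2% higher. In the quintile of genes with the highest mean expression, which held CDC20 and CCNB1, 24.9% were called lower and 17.0% higher. The median was -0.14 in siNTC5 and -0.005 in siHNRNPK libraries. Fitted alone, siNTC5 libraries had 9 members lower and siHNRNPK libraries 5. CDC20, which activates the anaphase-promoting complex, fell by 0.36 and CCNB1, cyclin B1, by 0.32 on the log2 scale. MKI67 (-0.08), TOP2A (-0.04) and PLK1 (-0.07) did not pass the test. The 6 tested replication-dependent histone genes, whose mRNA lacks a poly(A) tail, did not fall with the replication genes: 4 rose and none fell, with a median of 0.57. These were near the detection limit, H2AC6 at 0.42 to 3.63 CPM, and 1 to 4 of them were higher when single libraries were left out: 1 without siNTC5 replicate 2 or 3 or siHNRNPK replicate 2 or 4, and 2 without siHNRNPK replicate 1 or 3.

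The E2F element, spelled TTTCGCG and sought on both strands, stood in 5 of 29 replication list promoters (17.2%) and in 2.41% of the 10829 promoters. Its share was 2.14% among all genes called higher and 2.95% among all called lower. Windows of the promoters of 4 of these genes are shown for the same reason, with the match in capitals. They lie at chr2:135876564-135876610 (minus strand) for MCM6, which has a second match, chr7:100101398-100101426 (minus) for MCM7, chr11:65261889-65261935 (plus) for POLA2 and chr20:33686396-33686442 (minus) for E2F1.
MCM6: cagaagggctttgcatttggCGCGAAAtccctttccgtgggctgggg
MCM7: cggtcacgtggggggcgacgTTTCGCGcc
POLA2: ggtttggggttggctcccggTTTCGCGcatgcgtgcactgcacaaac
E2F1: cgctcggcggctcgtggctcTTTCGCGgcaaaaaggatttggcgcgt
The kit log2 fold changes were -0.23 for MCM6, -0.27 for MCM7, -0.42 for POLA2 and -0.34 for E2F1. UHRF1, which also held the element, was not called. The median was -0.267 for the 5 list genes with the element and -0.295 for those without it. This list was chosen as genes of DNA replication, so its share of promoters with the element does not bear on the kit difference.

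**Figure D2:**
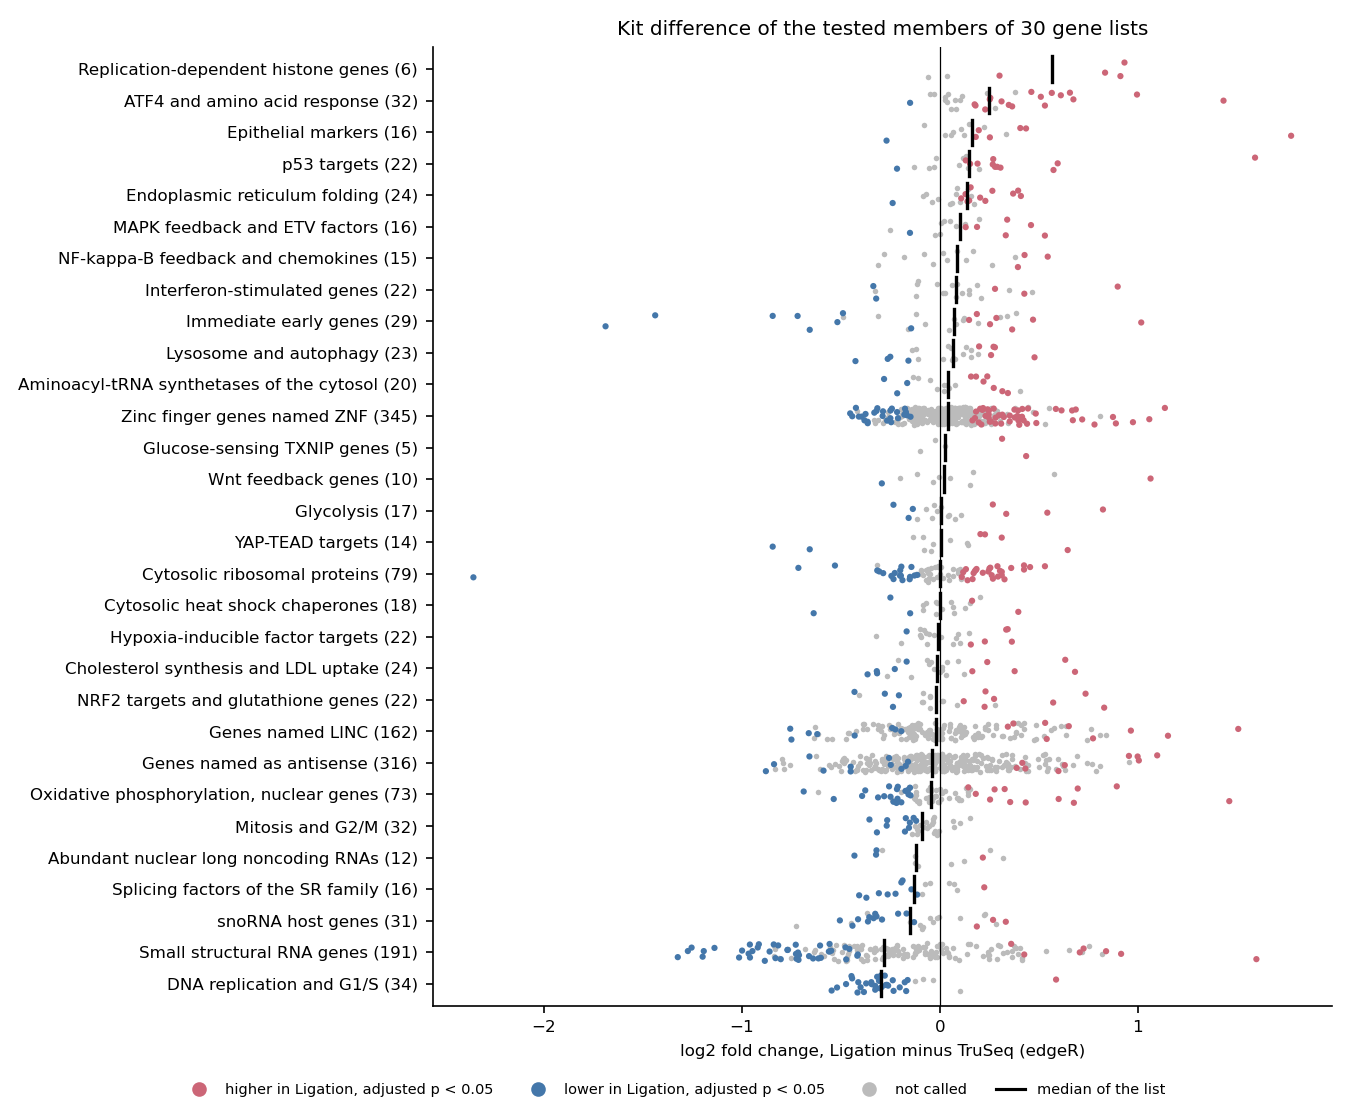
Log2 fold change, Ligation minus TruSeq (x axis), of every tested member of 30 gene lists (rows, number tested in brackets); coloured points passed the test, grey points did not, and black bars are list medians. DNA replication stands at the low end with a median of -0.30, and ATF4 genes near the high end with 0.25.

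Of 22 tested target genes of p53, 11 rose and 1 fell, with a median of 0.15, beside 15.2% of all tested genes called higher and 13.2% lower. The siNTC5 libraries alone gave 5 rises and 2 falls, and the siHNRNPK libraries alone 11 rises and no fall. BBC3, which encodes the cell death protein PUMA, was at 11.1, 6.22, 21.1 and 18.6 CPM in siNTC5 and 7.38, 5.35, 28.7 and 23.8 CPM in siHNRNPK replicates 1 to 4. All Ligation libraries exceeded all TruSeq libraries, by a log2 fold change of 1.59 ± 0.17 SE (edgeR adjusted p = 6.23e-06). FDXR, a mitochondrial reductase, rose by 0.60, GADD45A, a growth arrest protein, by 0.57 and CDKN1A, the cell cycle inhibitor p21, by 0.31. MDM2 (-0.02) and BAX (0.09) did not pass the test, and TRIAP1 fell by 0.22.

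Genes of protein folding in the endoplasmic reticulum had 11 of 24 higher and 1 lower, with a median of 0.14, against the same background. HSPA5, the chaperone BiP, was at 1077, 1089, 1265 and 1279 CPM in siNTC5 and 2608, 2649, 3750.2 and 3725 CPM in siHNRNPK replicates 1 to 4. The kits did not overlap within either siRNA, and the log2 fold change was 0.37. HERPUD1, a factor of protein degradation at that membrane, rose by 0.40. The count of rises was 6 without siHNRNPK replicate 1 or 2, 7 without siNTC5 replicate 3 and 8 to 12 without any other library.

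The next lists stand beside 15.2% of all tested genes called higher and 13.2% lower. Feedback genes of MAPK signalling had 6 of 16 higher and 1 lower, with a median of 0.10. Their median was 0.18 in siNTC5 and -0.03 in siHNRNPK libraries. The receptor EPHA2 rose by 0.53 and the phosphatase DUSP4 by 0.46. Epithelial genes had 6 of 16 higher and 1 lower, with a median of 0.16. KRT19, a keratin, rose by 0.44, and the claudin CLDN3 by 1.77 from at most 1.42 CPM in any TruSeq library. Of 22 NRF2 and glutathione genes 7 rose and 4 fell; FTH1, the ferritin heavy chain, rose by 0.83 and GCLM, which makes glutathione, fell by 0.43.

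Of 16 tested splicing factors of the SR family 9 fell and 1 rose, with a median of -0.13, beside 13.2% of all tested genes called lower and 15.2% higher. SRSF2 was at 372, 416, 290.1 and 285 CPM in siNTC5 and 394, 394, 311 and 305 CPM in siHNRNPK replicates 1 to 4, with every Ligation library below every TruSeq library. Its log2 fold change was -0.41 ± 0.04 SE (edgeR adjusted p = 6.45e-06). SRSF3 fell by 0.37 and SRSF7 by 0.31, while SRSF9 rose by 0.22. HSPE1, a mitochondrial chaperonin listed with the heat shock genes, fell by 0.64; of 18 heat shock genes 2 rose and 3 fell.

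Among 31 host genes of small nucleolar RNAs 12 fell and 3 rose, with a median of -0.15, beside 13.2% of all tested genes called lower and 15.2% higher. SNHG15 fell by 0.44 and SNHG6 rose by 0.33. Among 191 tested genes of small structural RNAs and microRNA loci 43 fell and 7 rose, with a median of -0.28. The count of falls was 53 without siNTC5 replicate 1 but 22, 21 and 24 without siNTC5 replicates 2, 3 and 4. SNORA70 and SNORA73A, guides of RNA pseudouridylation or processing, fell by 0.83 and 0.77. Where such a locus lies inside another gene, reads of the host and of the small RNA cannot be told apart in the counts. The values are therefore those of the annotated loci.

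The summed share of that class went the other way. It was 0.168% ± 0.008 (SD, n = 4) of counts in TruSeq and 0.217% ± 0.008 (SD, n = 4) in Ligation libraries, with no overlap. By a two-sided exact permutation test p was 0.0286, the lowest value possible with 4 libraries a side, and 0.171 after adjustment over the 6 measures of library composition. A single locus, MIR12136, held most of the share and rose from 0.0972% to 0.157%, more than the whole difference. It was at 1055, 999, 1590.1 and 1698 CPM in siNTC5 and 899, 919, 1580.0 and 1448 CPM in siHNRNPK replicates 1 to 4, all Ligation libraries above all TruSeq libraries. The counts do not say which transcript gave the reads at this locus, so its rise is not shown to be that of a microRNA. The shares of ribosomal protein genes (6.74% ± 0.76 in TruSeq and 6.89% ± 0.77 in Ligation, SD, n = 4) and of antisense-named genes overlapped between the kits. The shares of histone genes and of the 20 top genes and the number of genes detected at equal depth also missed the threshold of this test, which does not allow for the siRNA (p = 0.429, 0.2 and 0.429, exact permutation). Within each siRNA, however, both Ligation libraries exceeded both TruSeq libraries in all 3. The 20 top genes held 7.81% and 7.63% of counts in siNTC5 TruSeq, 8.15% and 8.05% in siNTC5 Ligation, 8.44% and 8.35% in siHNRNPK TruSeq and 8.91% and 9.10% in siHNRNPK Ligation libraries.

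The remaining lists had fewer calls or calls in both directions. Over all tested genes 28.5% were called, 15.2% higher and 13.2% lower. The share called was 57.0% for ribosomal protein genes. It was 20.0% for Wnt and NF-kappa-B genes, 22.7% for interferon-stimulated genes and 27.3% for hypoxia targets. It was 33.3% to 42.9% for oxidative phosphorylation, cholesterol, glycolysis, lysosome, YAP-TEAD, TXNIP-related and nuclear long noncoding RNA genes. Cytosolic ribosomal protein genes had 26 of 79 higher and 19 lower with a median of 0.00, and nuclear genes of oxidative phosphorylation had 12 of 73 higher and 19 lower with a median of -0.05. Within the latter NDUFS7, a complex I subunit, rose by 1.46, and ATP5MF, an ATP synthase subunit, fell by 0.69. Cholesterol genes had 5 of 24 higher and 5 lower, glycolysis 4 of 17 and 3, hypoxia targets 5 of 22 and 1, lysosome and autophagy genes 5 of 23 and 4, and interferon-stimulated genes 3 of 22 and 2. NF-kappa-B feedback genes had 3 of 15 higher and none lower, YAP-TEAD targets 4 of 14 and 2, Wnt feedback genes 1 of 10 and 1, TXNIP-related genes 2 of 5 and none. Nuclear long noncoding RNAs had 1 of 12 higher and 3 lower. Counts this small moved when single libraries were left out. Cholesterol rises were 2 and 3 without siNTC5 replicates 2 and 3, hypoxia falls 4 without siNTC5 replicate 2 and 2 without siHNRNPK replicate 4, and glycolysis falls 1 without siHNRNPK replicate 1 or 3. Lysosome rises were 3 without siNTC5 replicate 2, 3 or 4, heat shock rises 4 without siNTC5 replicate 3, and tRNA synthetase falls 5 without siNTC5 replicate 1. The single falls of the ATF4, p53, folding and MAPK lists went to between 0 and 2.

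Noncoding transcripts had few calls beside the 15.2% of all tested genes called higher and 13.2% lower. Of 316 antisense-named genes 9 rose and 11 fell, and of 162 named LINC 9 rose and 8 fell. These counts moved with single libraries. The antisense counts were 12 and 19 without siNTC5 replicate 1, 7 and 7 without siNTC5 replicate 2, 3 and 6 without siNTC5 replicate 3, 5 and 8 without siHNRNPK replicate 2, and 3 and 7 without siHNRNPK replicate 3. The LINC counts were 5 and 4, 4 and 3, and 5 and 3 without siNTC5 replicates 2, 3 and 4, and 7 and 5 without siHNRNPK replicate 3. Their levels were low, and in the quintile of genes with the lowest mean expression 7.03% were called higher and 2.01% lower, against 17.0% and 24.9% in the highest quintile. Zinc finger genes named ZNF had 51 of 345 higher and 27 lower, with a median of 0.04. Without siNTC5 replicate 3, 30 of these were higher and 16 lower. No gene encoded by the mitochondrial genome was in the table.

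The 12 largest rises among genes with a mean log2 CPM of at least 3 were MZT2A, BBC3, NDUFS7, CHAC1, MZT2B, IER5L, COL18A1, MIB2, CAPN15, VGF, COL9A3 and NME3, with log2 fold changes from 1.63 to 1.07. MZT2A and MZT2B, of the gamma-tubulin ring complex, are near-identical copies, and reads could be split between them. COL18A1, a basement membrane collagen, was at 50.0, 26.7, 85.5 and 76.4 CPM in siNTC5 and 8.37, 8.02, 24.7 and 22.4 CPM in siHNRNPK replicates 1 to 4. Within each siRNA the Ligation libraries were the higher pair, and siNTC5 replicate 1 was nearer to them than replicate 2. The log2 fold change was 1.24 ± 0.14 SE (edgeR adjusted p = 1.28e-05).

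The 12 largest falls among such genes, from -1.69 to -0.66, were FOS, FOSB, RPSAP58, CCN1, SNORA70, TOE1, SNORA73A, PCLAF, DUSP2, ATP5MF, LINC00342 and CCN2. TOE1, a deadenylase that processes small nuclear RNA, was at 26.0, 31.7, 17.7 and 15.8 CPM in siNTC5 and 22.02, 22.6, 13.4 and 13.1 CPM in siHNRNPK replicates 1 to 4. All Ligation libraries were below all TruSeq libraries. RPSAP58 is by name a copy of the ribosomal protein gene RPSA, and its counts are uncertain for that reason. Counts of the ribosomal protein gene RPL7A are uncertain as well, at only 0.0547 to 2.31 CPM, and the reason for this low level was not tested. Its mean log2 CPM was 0.414, beside 0.162 for RPL36A and 1.83 for RPS10 of the same list.

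The called genes were unevenly spread over chromosomes. Of 960 tested genes on chromosome 19, 362 (37.7%) were higher and 54 (5.63%) lower in Ligation libraries, with a median log2 fold change of 0.18. Of the 12807 tested genes placed on other chromosomes, 13.7% were higher and 13.9% lower, with a median of -0.00. The next medians were 0.06 for chromosome 22 and 0.04 for chromosome 16. The median on chromosome 19 was 0.18 in siNTC5 and 0.19 in siHNRNPK libraries, and 299 to 408 of its genes were higher when single libraries were left out, 408 without siNTC5 replicate 1.

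Chromosome 19 holds many zinc finger genes in clusters. The 152 ZNF genes there had a median of 0.08 and the other 808 genes a median of 0.22, with 339 of the latter higher. By stretches of 10 Mb from the start of the chromosome, the medians were 0.35 (126 of 215 genes higher), 0.16, -0.14 (2 of 19 higher and 6 lower), 0.08, 0.18 and 0.13, so the shift was not even along it. NDUFS7, at chr19:1383907-1395584, lies in the first of these stretches; BBC3, GDF15, JUNB and JUND lie elsewhere on the chromosome. Across protein-coding genes with a promoter sequence (10254 of 12494), the share called higher went from 9.36% in the quintile with the lowest promoter GC content to 23.5% in the highest, with a Pearson r across genes of 0.09. Within each quintile, chromosome 19 genes had medians from 0.10 to 0.33 and the other genes from -0.02 to 0.03. The part of promoter composition in the kit difference was not tested.

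**Figure D3:**
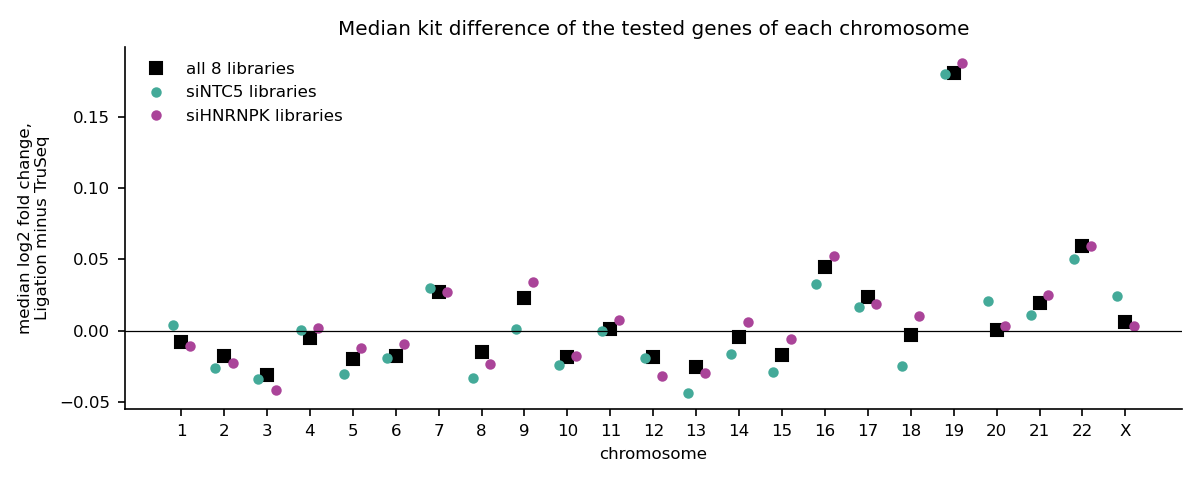
Median log2 fold change, Ligation minus TruSeq (y axis), of the tested genes of each chromosome (x axis), over all 8 libraries (squares) and within each siRNA (circles). Chromosome 19 stands at 0.18 in siNTC5, 0.19 in siHNRNPK and 0.18 over all libraries, and the next highest over all libraries is chromosome 22 at 0.06.

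**Figure D4:**
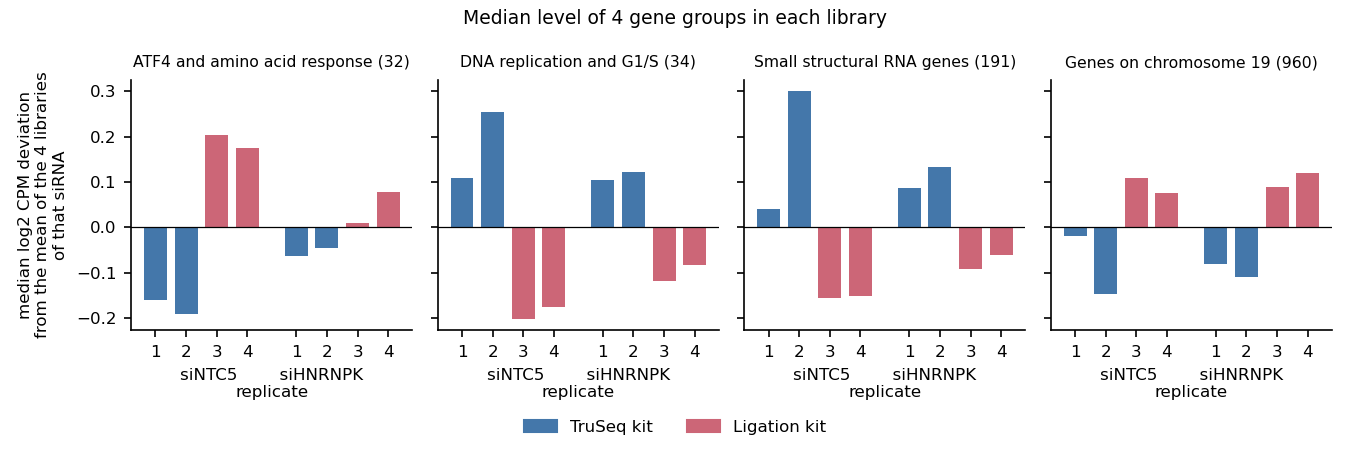
Median deviation in log2 CPM (y axis) of 4 gene groups in each library from the mean of the 4 libraries of its siRNA, with the number of genes in brackets. Ligation libraries lie on the same side of 0 for each group in both siRNAs, and siNTC5 replicate 1 is nearer to 0 than replicate 2 in each.

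The plot of group levels shows the same libraries group by group. ATF4 genes were at median deviations of -0.16, -0.19, 0.20 and 0.18 in siNTC5 replicates 1 to 4 and -0.06, -0.05, 0.01 and 0.08 in siHNRNPK replicates 1 to 4. Replication genes were at 0.11, 0.25, -0.20 and -0.17 in siNTC5 and at 0.10, 0.12, -0.12 and -0.08 in siHNRNPK replicates 1 to 4. The kits did not overlap within either siRNA for either group. The difference between the siRNAs was not tested for a group as a whole; 5 of the 32 ATF4 genes passed the interaction test. For chromosome 19 genes siNTC5 replicate 1 stood at -0.02 and replicate 2 at -0.15, against 0.11 and 0.08 in the Ligation controls.

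The interaction of kit and siRNA asked whether the kit difference was the same in control and depleted cells. In edgeR 18 genes passed (0.129% of those tested), 10 with a higher and 8 with a lower kit difference in siHNRNPK libraries, and 1639 had an unadjusted p under 0.05. Of the 18, 5 belong to the ATF4 list (CHAC1, SLC7A11, TRIB3, PSAT1 and PHGDH) and 4 to the immediate early list (FOSB, NR4A1, JUN and CCN1). In 12 of the 18 the difference was larger in siNTC5 libraries, and in 12 it had opposite signs in the siRNA groups. The count moved with the library left out: it was 364 without siNTC5 replicate 1, 598 without siNTC5 replicate 2, and 6 to 9 without any of the others. Each omission leaves 1 arm with a lone library, which is assumed to vary like the others.

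Among the ATF4 genes, the interaction of CHAC1 was -2.88 ± 0.17 SE in log2 (edgeR adjusted p = 3.39e-08). The cystine transporter SLC7A11 was at 70.9, 74.2, 127 and 126 CPM in siNTC5 and 304, 331, 279 and 281 CPM in siHNRNPK replicates 1 to 4. Its Ligation libraries were higher in control and lower in depleted cells, with an interaction of -0.98 ± 0.08 SE (edgeR adjusted p = 2.20e-06). PSAT1, of serine synthesis, rose by 0.58 in control cells and stood at -0.05 in depleted cells. For SLC7A11 and PSAT1 every siHNRNPK library was above every siNTC5 library. For TRIB3 this held with the TruSeq kit, while with the Ligation kit the siHNRNPK libraries (80.4 and 80.8 CPM) were below the siNTC5 libraries (91.7 and 88.4 CPM).

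Among the immediate early genes, FOSB had an interaction of 2.55 ± 0.19 SE in log2 (edgeR adjusted p = 6.94e-07). NR4A1, an orphan nuclear receptor, was at 75.3, 90.4, 36.0 and 34.8 CPM in siNTC5 and 67.8, 68.2, 82.3 and 78.3 CPM in siHNRNPK replicates 1 to 4. It was lower with the Ligation kit in control cells and slightly higher in depleted cells. JUN, the AP-1 partner of FOS, was at 13.3, 12.8, 11.9 and 10.1 CPM in siNTC5 and 18.5, 18.0, 36.3 and 32.9 CPM in siHNRNPK replicates 1 to 4, so that the kits were apart in depleted cells and the Ligation libraries slightly lower in control cells. FOS itself fell in both, with an interaction of 0.54 that missed the threshold (adjusted p = 0.0617 in edgeR).

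HSPA8, the constitutive cytosolic chaperone HSC70, was at 2546, 2900, 1910.5 and 1923 CPM in siNTC5 and 2837, 2862, 2842 and 2887 CPM in siHNRNPK replicates 1 to 4. The kits were apart in control cells and overlapped in depleted cells. Its interaction was 0.51 ± 0.08 SE (edgeR adjusted p = 0.00708).

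**Figure D5:**
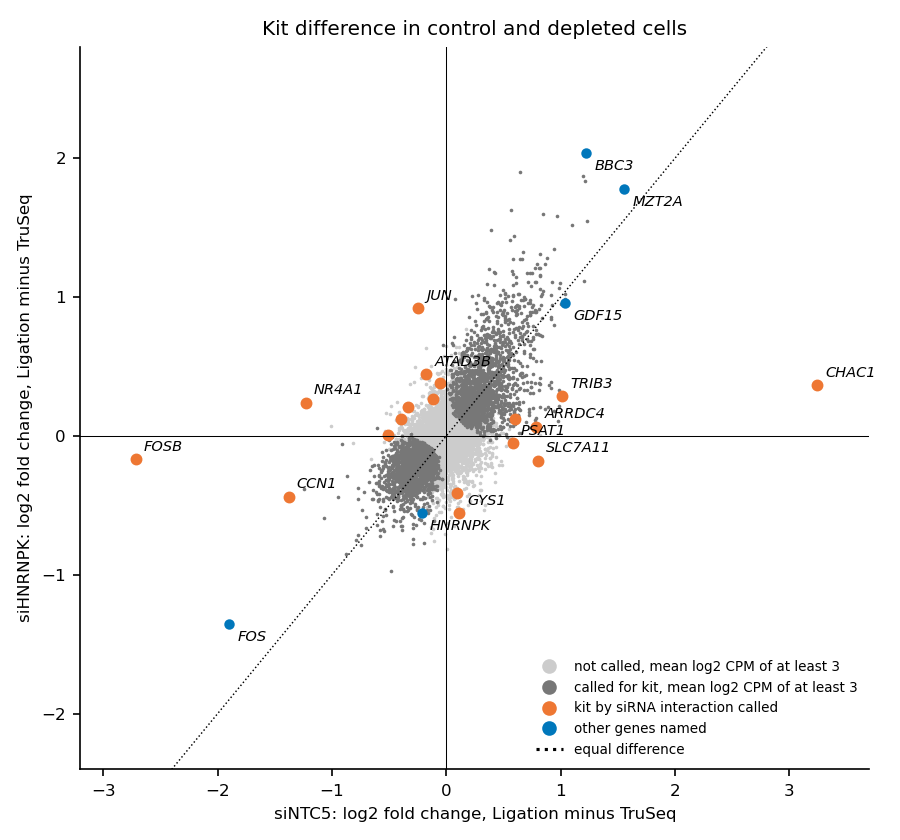
Log2 fold change, Ligation minus TruSeq, in siNTC5 (x axis) and siHNRNPK libraries (y axis) for genes with a mean log2 CPM of at least 3; grey shades mark genes called or not called for kit, orange the 18 genes called for the interaction, blue other genes named, and the dotted line equal differences. CHAC1 (3.24 and 0.37) and FOSB (-2.72 and -0.17) lie furthest from the line.

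The 2 Scramble libraries give the level of these genes in control cells whose RNA was made into libraries with the TruSeq kit but purified otherwise. They came as separate count tables, and levels in CPM of the library total are set side by side without a test. The tables are not comparable for every gene: RPSAP58 was at 1238 and 1275 CPM in Scramble libraries and at 4.51 to 9.56 CPM in siNTC5 libraries. For 11 of the 12 largest rises the Scramble mean was nearer to the Ligation than to the TruSeq siNTC5 mean, but for 6 of the 12 both Scramble libraries exceeded every siNTC5 library. CHAC1 was at 138 and 124 CPM in Scramble libraries, against 38.4 and 31.2 CPM in the Ligation and 3.71 and 3.597 CPM in the TruSeq siNTC5 libraries.

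Among the 12 largest falls, 8 had a name shared by the tables. The Scramble mean was nearer to the Ligation mean for 5 and to the TruSeq mean for 3, one of which was RPSAP58, and 4 of the 8 genes lay below every siNTC5 library. FOS, at 95.1 and 92.1 CPM, lay between the Ligation (44.8 and 48.4 CPM) and TruSeq (166 and 181 CPM) siNTC5 libraries. Of 15 interaction genes other than those already counted, 8 lay below and 6 above every siNTC5 library, and the Scramble libraries fell outside the range of both kits in these. TRIB3, for example, was at 288 and 268 CPM and TACC3 at 57.9 and 63.3 CPM, where the siNTC5 libraries had at most 92.9 CPM of TRIB3 and at least 151 CPM of TACC3.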

How the data were processed

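Polyadenylated RNA of HCT116 cells was sequenced, and the data analysed here are raw counts per gene symbol, deposited by the authors as whole numbers without normalisation. Per the submitters' processing notes, reads were aligned with STAR 2.7.1a and counted with featureCounts (Subread 2.0.6) on hg38; for the Scramble tables hg19 and hg38 are both named. The annotation and the strand setting are not given in the sources used here. Kit and siRNA were taken from the sample labels, and 0 columns lacked a sample.

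Genes passing filterByExpr by kit (13933 of 28278) were tested with edgeR 4.0.16 (R 4.3.3, limma 3.58.1) by the quasi-likelihood test, with TMM factors and the terms siRNA and kit. The interaction was tested in a second model, and each siRNA's kit difference in a fit of its own 4 libraries with the same genes and factors. A gene was called at an adjusted p below 0.05. SE is the absolute log2 fold change over the square root of F. Library composition was compared by exact permutation tests (scipy 1.17.1; pandas 2.3.3, numpy 2.4.6, Python 3.11.15; figures with matplotlib 3.10.9). On counts simulated for this comparison over 13776 genes, 91 of 100 genes changed 2-fold and 83 of 100 changed 1.5-fold were called, with 4 false calls. Simulated libraries were independent and shared the same mean per gene apart from the kit change. They held no siRNA effect and no siNTC5 replicate difference, so the false calls do not give the rate in the real libraries.

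Genes named were HNRNPK, the 12 largest rises and falls among called genes with mean log2 CPM of at least 3 and kits separated within each siRNA, the 5 largest interactions, and 2 rises and 2 falls per list. Others were named after their values were seen. The comparison and the lists were chosen with earlier results of these data known, and some lists came from that earlier work, so their counts are descriptions beside the share called over all tested genes. Promoters (250 bases before the start) and positions are from RefSeq, GRCh38.p14, which held 98.8% of tested symbols. A promoter sequence was at hand for 10829 of the 13933 tested genes (77.7%), and for none of those on chromosome 8. The motif windows were chosen after values were seen. Alternatives were other normalisations, filters, tests (DESeq2 1.42.0, limma voom), a minimum fold change, fits without the siRNA term, by siRNA, with a replicate block and without each library. The ChIP libraries were not used here.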

Additional observations from a re-analysis of the deposited data

Results flagged for a closer look

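For 18 genes the kit difference itself differed between siHNRNPK and siNTC5 libraries by the interaction test (edgeR, adjusted p below 0.05). The values that follow are the kit log2 fold change in siHNRNPK minus that in siNTC5. Among ATF4 targets it was -2.88 for CHAC1, -0.98 for SLC7A11, -0.73 for TRIB3, -0.63 for PSAT1 and -0.48 for PHGDH. Among immediate early genes it was 2.55 for FOSB, 1.47 for NR4A1, 1.17 for JUN and 0.94 for CCN1. ARRDC4, an arrestin that glucose raises through MondoA, had -0.72, and GYS1, glycogen synthase of muscle, had -0.67. The noncoding RNA UCA1 had -0.51. The remaining genes had larger values in siHNRNPK libraries: 0.62 for ATAD3B, 0.55 for CCDC86, 0.52 for AEN, a nuclease that p53 induces, 0.51 for HSPA8, 0.44 for TACC3, a spindle protein, and 0.38 for SERBP1, an mRNA-binding protein.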

How the results depend on the processing

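The 3966 genes called for kit became 116 with a minimum absolute log2 fold change of 1 and 2014 on siNTC5 libraries alone with genes filtered and scaled anew, where 45.6% of calls were higher against 53.5% over all 8 libraries. Without the siRNA term edgeR called 0 genes (1384 at an unadjusted p under 0.05, lowest adjusted p 0.0792). Leaving out single libraries gave 2891 to 4539. DESeq2 called 3467, the fit without a filter 4181, and voom 4088 without and 4628 with the replicate block. The replicate numbers are not shown to pair libraries: deviations of same-numbered libraries had an r across genes of 0.12 in TruSeq and 0.02 in Ligation. The 18 interaction genes became 239 with no filter, 44 with robust dispersion, 65 in DESeq2, and 6 to 598 without single libraries. Kit log2 fold changes changed sign on siHNRNPK libraries alone for NR4A1 (0.23), SLC7A11 (-0.19) and HSPA8 (0.0013), and on siNTC5 libraries alone for JUN (-0.25). Of 2284 values of 121 named genes under these settings, 1995 kept direction and side of the threshold, 264 lost their call, 21 gained one and 4 reversed. Where the cause of a change is not the number of libraries or genes, it was not tested. The runs on chromosome 19 genes were added after the data were seen. Calls were fewer among weakly expressed genes: in the lowest quintile by mean expression 7.03% were called higher and 2.01% lower, against 17.0% and 24.9% in the highest, and the part of depth in this was not tested.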
